A study of Mus musculus with 6 samples.

Results

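The enzymes that turn squalene epoxide into cholesterol were examined in the liver of mice on 2 diets. They are 9 genes, Lss, Cyp51, Tm7sf2, Msmo1, Nsdhl, Hsd17b7, Ebp, Sc5d and Dhcr7, taken by their place in the pathway and found on the array through the RefSeq accession of each probe. All 9 were on the array, with 16 of its 56605 probes, and a gene symbol was found for 32994 probes of 22911 genes. Male mice, 12 weeks old, ate regular chow only (control, 3 mice) or chow of 75% regular food and 25% soy bean (soy, 3 mice) for 4 weeks. Strain and genotype are not given in the sources used here, and both groups are otherwise described alike. RNA from the right hepatic lobe of each mouse was hybridized to 1 Agilent mouse expression array, so a value is the signal of bulk liver, in which fewer cells of a type and less RNA per cell cannot be told apart. Of the spots of each array, 37010, 36366 and 38163 stood well above background in control 1, 2 and 3, and fewer did in soy 1, 2 and 3, with 31308, 31988 and 32498. All 16 probes of the enzymes were well above background on all 6 arrays, and 0 of their spots were saturated.

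Cholesterol synthesis begins with acetyl units that are joined to mevalonate and squalene, and the steps examined here begin with the closing of the ring system. Lss closes squalene epoxide to lanosterol, Cyp51 removes a first methyl group, Tm7sf2 reduces the double bond this leaves, Msmo1, Nsdhl and Hsd17b7 act in turn on the methyl groups next to the hydroxyl, and Ebp shifts, Sc5d adds and Dhcr7 reduces a double bond of the ring. Hepatocytes make much of the cholesterol of the body, and the transcription factor SREBP-2, released when sterols in the endoplasmic reticulum are low, is known to drive these genes together, on promoters that also bind NF-Y at CCAAT boxes.

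The promoters of 5 of the genes are shown, Cyp51 and Sc5d, and Tm7sf2 and Nsdhl, because these pairs were most alike over the arrays, and Hsd17b7 because it alone was higher on every soy array than on any control. They are RefSeq windows of assembly GRCm38.p6 from 250 bases before to 50 bases after the annotated start, read 5′ to 3′, with matches to CCAAT on either strand in capitals (ATTGG is CCAAT on the other strand). Cyp51 lies at chr5:4104648-4104947 on the - strand, Sc5d at chr9:42264251-42264550 on the - strand, Tm7sf2 at chr19:6067801-6068100 on the - strand, Nsdhl at chrX:72918271-72918570 on the + strand and Hsd17b7 at chr1:169969156-169969455 on the - strand.
Cyp51: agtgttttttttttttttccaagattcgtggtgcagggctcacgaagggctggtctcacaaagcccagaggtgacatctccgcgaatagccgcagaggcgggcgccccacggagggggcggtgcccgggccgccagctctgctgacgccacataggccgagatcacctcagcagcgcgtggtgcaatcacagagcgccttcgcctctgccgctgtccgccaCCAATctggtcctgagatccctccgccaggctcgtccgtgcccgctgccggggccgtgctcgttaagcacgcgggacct
Sc5d: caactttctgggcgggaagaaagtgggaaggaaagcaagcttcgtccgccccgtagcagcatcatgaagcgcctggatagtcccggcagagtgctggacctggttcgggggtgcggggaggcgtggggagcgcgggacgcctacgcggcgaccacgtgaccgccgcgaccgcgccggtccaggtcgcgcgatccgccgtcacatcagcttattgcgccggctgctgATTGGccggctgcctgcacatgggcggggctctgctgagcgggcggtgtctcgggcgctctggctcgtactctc
Tm7sf2: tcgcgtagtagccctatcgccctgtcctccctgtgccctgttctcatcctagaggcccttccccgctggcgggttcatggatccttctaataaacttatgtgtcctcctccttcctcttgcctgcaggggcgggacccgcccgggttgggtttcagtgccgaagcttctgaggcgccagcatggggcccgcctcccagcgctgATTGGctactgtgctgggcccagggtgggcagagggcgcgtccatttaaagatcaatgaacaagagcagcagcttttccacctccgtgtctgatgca
Nsdhl: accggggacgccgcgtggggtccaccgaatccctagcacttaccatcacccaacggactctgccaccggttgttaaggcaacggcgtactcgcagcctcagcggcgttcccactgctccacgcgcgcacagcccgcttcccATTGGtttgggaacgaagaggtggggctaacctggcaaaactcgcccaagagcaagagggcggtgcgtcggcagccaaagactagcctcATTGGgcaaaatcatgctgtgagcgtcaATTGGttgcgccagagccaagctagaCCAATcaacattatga
Hsd17b7: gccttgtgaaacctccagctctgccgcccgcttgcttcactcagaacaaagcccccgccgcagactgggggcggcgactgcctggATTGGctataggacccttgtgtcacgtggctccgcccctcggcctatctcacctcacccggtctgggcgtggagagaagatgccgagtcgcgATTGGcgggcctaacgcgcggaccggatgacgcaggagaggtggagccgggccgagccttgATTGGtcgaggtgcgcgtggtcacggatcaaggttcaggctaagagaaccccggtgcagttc

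A CCAAT match lay in a promoter of all 9 genes, and 41.1% of the 27025 genes with a promoter in the table hold one. Of the 18 matches, 16 began upstream of the start, and they lay between positions -170 and 34 from it. The GC box GGGCGG was present in all 9 genes as well, against 38.2% of all genes, and the E-box CACGTG in 3 (Hsd17b7, Sc5d and Dhcr7), against 8.09%. CCAAT and the GC box were each in 5 of 6 genes with a promoter from the earlier, mevalonate part of the pathway. Of 8 genes for the control of SREBPs and sterol uptake, 5 held CCAAT and 7 the GC box. The letters TCACNCCAC, a form of the sterol regulatory element, were in 0 of the 9 enzymes and in 1.44% of all genes. Other forms of this element were not searched. With so low a share of all genes, 0 of 9 does not show that the element is absent. Both strands were searched, the 9 genes have 11 windows since Dhcr7 has several annotated starts, and matches of different motifs overlapped in 0 cases. These are matches of letters in short windows and were not tested as binding sites.

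On these arrays the enzymes went both ways, with 4 higher and 5 lower in soy livers. Of all genes, 48.8% were higher. On the brightest probe of each gene the log2 change of soy against control ran from -0.33 (Nsdhl) to 0.26 (Hsd17b7), which is 0.795-fold to 1.20-fold, and the median was -0.05. The median over all genes was -0.01. With limma across all probes, at an adjusted p under 0.05 and a change above 1.5-fold or under 0.66-fold, 0 of the 9 genes passed, where 0.532% of all genes (122 of 22911) did, made up of 0.34% of all genes that were higher and 0.192% that were lower in soy. The lowest adjusted p of any of the 16 probes was 0.331. Without adjustment, 2 of 9 genes (22.2%) had a p under 0.05, Nsdhl and Hsd17b7, as did 14.2% of all genes, and in 3 of 9 (33.3%) the soy and control arrays did not overlap, as in 20.4% of all genes. Of these, Hsd17b7 was higher in soy (9.67% of all genes) and Nsdhl and Ebp were lower (10.8% of all genes). The median size of the change, regardless of sign, was 0.14 for the enzymes and 0.15 for the 13513 genes well above background on all arrays. All 9 changes were under 0.5 in size, as were 90.4% of those genes. The 95% confidence intervals of the 9 changes reached from 0.630-fold at the lowest to 1.60-fold at the highest.

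**Figure D1:**
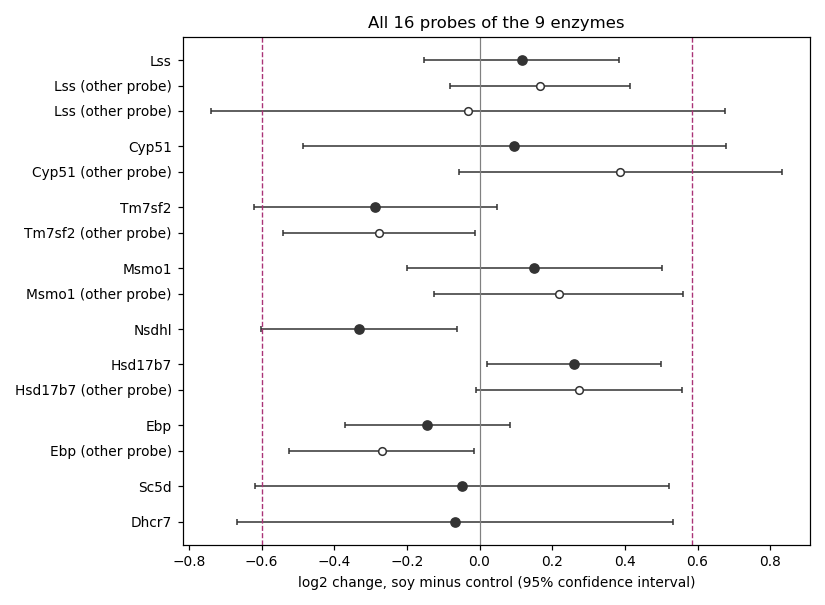
Log2 change of soy minus control livers with its 95% confidence interval for each of the 16 probes (filled points, brightest probe of a gene; open points, its other probes), with dashed lines at 1.5-fold and 0.66-fold. The brightest probes lie between -0.33 (Nsdhl) and 0.26 (Hsd17b7).

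Of the enzymes of the first steps, from lanosterol synthesis to the reductase after Cyp51, Lss and Cyp51 were slightly higher and Tm7sf2 lower in soy livers, and none passed. For Lss (NM_146006), the cyclase, the signal (log2) was 12.48, 12.49 and 12.34 in control and 12.42, 12.73 and 12.50 in soy livers. The groups overlapped, and only soy 2 and soy 3 exceeded every control. The change was 0.12 (SE 0.12, limma adjusted p = 0.753), and its other probes gave 0.17 and -0.03, the last with a wide interval from -0.74 to 0.68. Cyp51 (NM_020010), a cytochrome P450, was 13.29, 12.42 and 12.86 in control and 12.60, 13.31 and 12.94 in soy. The arrays of either diet spread over nearly the whole range, so the change of 0.10 (SE 0.25, limma adjusted p = 0.918) is smaller than the SD of each group, 0.44 in control and 0.35 in soy. Its dimmer probe gave 0.39 (adjusted p = 0.498). Tm7sf2 (NM_028454), the sterol reductase that follows Cyp51, was 15.91, 15.50 and 15.51 in control and 15.51, 15.22 and 15.33 in soy. Its brightest probe changed by -0.29 (SE 0.14, limma adjusted p = 0.505), with control 2 and control 3 level with soy 1. On the dimmer probe, at -0.28 (adjusted p = 0.411), all soy arrays lay below all controls.

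The enzymes that remove the next methyl groups act as partners, but their signals went in different directions. Msmo1 (NM_025436), the oxygenase that opens this part of the pathway, was 14.72, 15.11 and 15.11 in control and 14.99, 15.34 and 15.06 in soy livers. Control 1 was low and soy 2 high while the other arrays lay close together, and the change was 0.15 (SE 0.15, limma adjusted p = 0.753), with 0.22 on its other probe. Nsdhl (NM_010941), the decarboxylating dehydrogenase, was 12.67, 12.40 and 12.35 in control and 12.20, 12.13 and 12.09 in soy. Every soy array was below every control array. The change was -0.33 (SE 0.12, limma adjusted p = 0.331), or 0.795-fold with an interval of 0.659 to 0.958. Hsd17b7 (NM_010476), the ketoreductase that ends the cycle, was 12.78, 12.86 and 12.89 in control and 13.00, 13.23 and 13.07 in soy, so every soy array was above every control. The change was 0.26 (SE 0.10, limma adjusted p = 0.397), or 1.20-fold with an interval of 1.01 to 1.41, and the other probe gave 0.27 without overlap. For Nsdhl and Hsd17b7 the unadjusted p of limma was 0.0223 and 0.0370, so neither passed once all probes were counted, and the difference between the members was not tested.

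Of the last enzymes, Ebp was lower in soy livers, while Sc5d and Dhcr7 differed more between mice than between diets. Ebp (NM_007898), the isomerase that shifts the ring double bond, was 16.29, 16.29 and 16.33 in control and 16.11, 16.28 and 16.09 in soy. The controls lay within an SD of 0.02, and soy 2 came close to them. Its change was -0.14 (SE 0.10, limma adjusted p = 0.630), and the dimmer probe gave -0.27 (adjusted p = 0.409), with no overlap on either. Sc5d (NM_172769), the desaturase before the last step, was 15.74, 14.89 and 15.61 in control and 15.12, 15.70 and 15.27 in soy. Control 2 was the lowest array and control 1 the highest, and the change was -0.05 (SE 0.24, limma adjusted p = 0.959). Dhcr7 (NM_007856), the reductase that yields cholesterol, was 12.06, 12.05 and 12.21 in control and 11.38, 12.43 and 12.31 in soy. Soy 1 alone was far below the rest, and the other soy arrays were above all controls. The change was -0.07 (SE 0.26, limma adjusted p = 0.945) with all arrays and 0.26 (adjusted p = 0.439) without soy 1. Sc5d likewise had the opposite sign without soy 1 (0.07), without control 1 (0.11) or without control 3 (0.05), as did Cyp51 without control 2 (-0.12) or without soy 2 (-0.08).

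**Figure D2:**
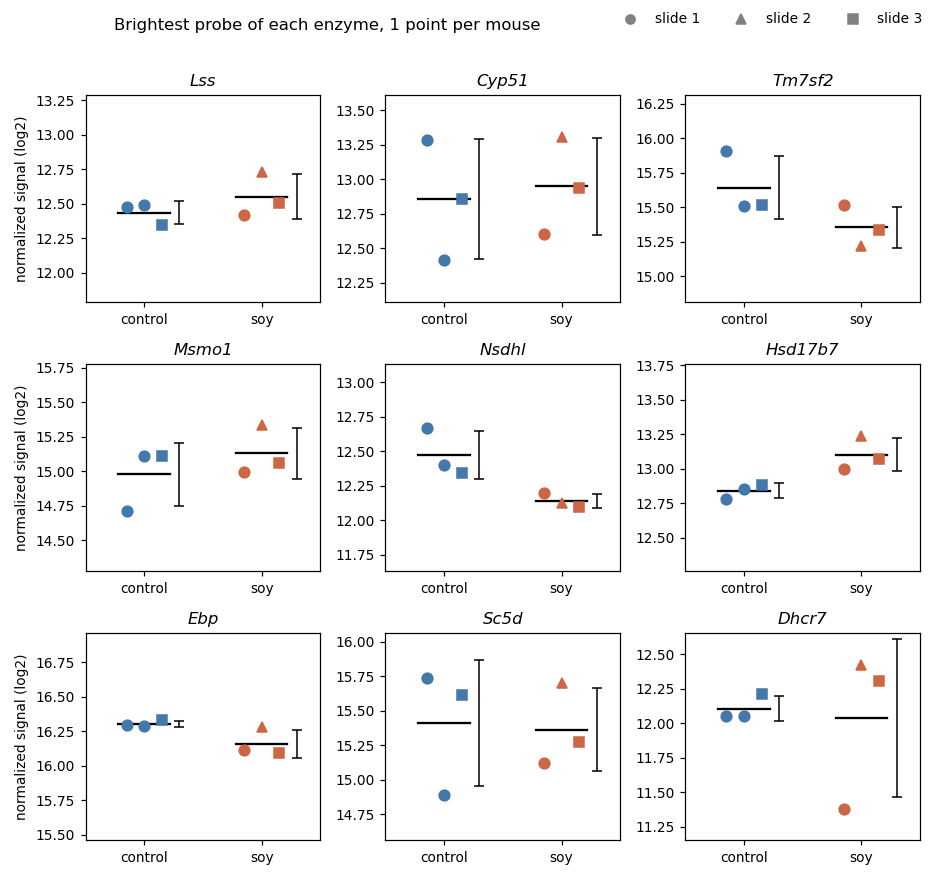
Normalized signal (log2) of the brightest probe of each enzyme on the 3 control and 3 soy arrays, with the mean (line) and SD (bar) of each diet; marker shapes give the slide, and every panel spans the same range. Nsdhl and Hsd17b7 separate the diets in opposite directions, and Dhcr7 has 1 low array at 11.38 (soy 1).

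The mice of either diet also differed among themselves. When each gene was centred on its own mean, the mean over the 9 genes was 0.11, -0.10 and 0.03 on control 1, 2 and 3, and -0.18, 0.16 and -0.03 on soy 1, 2 and 3. The arrays of both diets lay on both sides of 0, in a mean that joins genes higher and genes lower in soy. Soy 2 held the highest signal for 5 of the 9 genes and control 1 for 3, and on soy 1 only 2 genes were above their own mean. The median change of the 9 genes, -0.05 over all arrays, was 0.18 without soy 1, 0.05 without control 3, 0.02 without control 1, -0.0030 without soy 3, -0.12 without control 2 and -0.20 without soy 2, so its sign depends on the array left out. Cyp51 and Sc5d were high and low on the same arrays, both being lowest on control 2 and second lowest on soy 1. Over the 6 arrays their Pearson r was 0.915 (exact permutation p = 0.0111) and Spearman's rho was 0.886 (exact permutation p = 0.0333), but after adjustment over the 36 pairs of enzymes p was 0.230 and 0.525. Without control 2 and soy 2, the farthest arrays in Cyp51, r was 0.806. A slide holds at most 3 arrays, and no r was computed within a slide. Of the 36 pairs, 25 had a positive r, the median was 0.228, and 0 passed after adjustment. The lowest was that of Tm7sf2 and Msmo1, with r = -0.921 (exact permutation p = 0.0292, adjusted 0.230) and rho = -0.714 (exact permutation p = 0.136, adjusted 0.582). Without control 1 and soy 2 this r was 0.0941, so the relation rests on those arrays. Tm7sf2 and Hsd17b7 had r = -0.875, and -0.772 without the same arrays. For Nsdhl and Hsd17b7, r was -0.866, and -0.931 without control 1 and soy 3. Each of these pairs joins a gene lower and a gene higher in soy, and neither passed after adjustment (exact permutation, adjusted p = 0.230). Tm7sf2 and Nsdhl were both highest on control 1 and lower on soy 2 and soy 3 than on any control. Their r was 0.930 (exact permutation p = 0.0153, adjusted 0.230) and rho 0.771 (exact permutation p = 0.103, adjusted 0.529), and r was 0.777 without control 1 and soy 2. Both were lower in soy, so this r spans a difference between the diets.

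**Figure D3:**
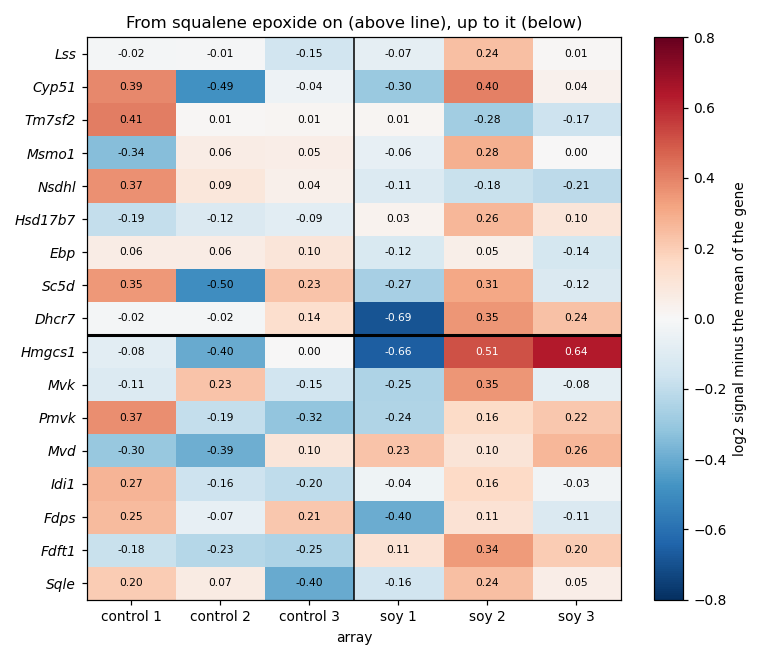
Log2 signal of each gene minus its own mean, by array, for the 9 enzymes (above the line) and 8 genes of the mevalonate part of the pathway (below). Dhcr7 is low on soy 1, at -0.69, and Cyp51 and Sc5d are low on control 2, at -0.49 and -0.50.

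Among 92 other genes of the lists used here, those most like the mean of the enzymes over the 6 arrays were Fdps (r = 0.856), Mbtps1 (r = 0.842), Hba-a1 (r = 0.831), Nr1h2 (r = 0.808) and Hmgcs1 (r = 0.661). Fdps and Hmgcs1 belong to the mevalonate pathway, Mbtps1 cleaves SREBPs, Nr1h2 is a sterol-sensing receptor, and Hba-a1 is a globin of red cells. The next gene, the endothelial marker Stab2, was close behind Hmgcs1 (r = 0.656). At the other end, and chosen after its values were seen, stood the hepatocyte marker Ttr (r = -0.888), followed by Srebf1 (r = -0.734). All these r values are for the brightest probe of a gene, and none was computed for its other probes, which can differ. Every dimmer probe of Mbtps1, and that of Nr1h2, was lowest on control 1, where the brightest probe was highest. The brightest probe of Ttr was highest on soy 1 and soy 3, at 18.18 on both. Its dimmer probe was lowest on these arrays, at 13.69 and 13.66. The mean does not stand for each enzyme: with the mean of the other 8 enzymes, r was 0.820 for Cyp51, 0.789 for Sc5d, 0.544 for Dhcr7, 0.490 for Ebp and 0.453 for Lss, but 0.0703 for Hsd17b7, 0.0256 for Nsdhl, -0.0673 for Msmo1 and -0.181 for Tm7sf2. With the mean of each diet taken off first, r was 0.590 for Hsd17b7, 0.695 for Ebp, 0.634 for Lss, 0.886 for Cyp51, 0.788 for Sc5d and 0.539 for Dhcr7, and stayed low for Nsdhl (0.105), Msmo1 (0.0136) and Tm7sf2 (-0.232). Cyp51, Sc5d and Dhcr7 also had the largest SD over the arrays (0.36, 0.35 and 0.37), and so weigh most in the mean. These r values describe 6 arrays that also share their slides, and were not tested.

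By the barcodes in the file headers, the 6 arrays came from 3 slides. Slide 1 carried 2 controls (1 and 2) beside soy 1, slide 2 carried soy 2 alone, and slide 3 held the remaining pair, control 3 with soy 3. Within slides, the change had the same sign on slide 1 and slide 3 for 5 of the 9 enzymes (55.6%), as for 60.5% of all genes. These were Tm7sf2 (-0.19 and -0.18), Nsdhl (-0.34 and -0.25), Ebp (-0.18 and -0.24), Sc5d (-0.19 and -0.34) and Hsd17b7 (0.18 and 0.19). Tm7sf2, Nsdhl, Ebp and Sc5d were thus lower, and Hsd17b7 higher, on soy arrays within either slide and over all arrays, although Sc5d was at -0.05 over all arrays and had the opposite sign without some of them. Dhcr7 was -0.67 on slide 1 and 0.10 on slide 3, Cyp51 was -0.25 and 0.08, Lss was -0.06 and 0.16, and Msmo1 was 0.08 and -0.05. Of the 9 enzymes, 2 were higher in soy on slide 1, where the soy array is soy 1, and 4 on slide 3. Over the 13513 genes well above background on all arrays the median change was -0.0018 on slide 1 and 0.02 on slide 3. With slide as a block in limma, 0 of 9 passed, and the median of the 9 changes was -0.19, against -0.05. In that fit Dhcr7 changed by -0.34 and Sc5d by -0.26, Lss by 0.03, Msmo1 by 0.02, and Cyp51 by -0.11, the opposite sign. Tm7sf2 was at -0.19, Nsdhl at -0.30, Ebp at -0.20 and Hsd17b7 at 0.18. The values within a single slide rest on 3 arrays for slide 1 and 2 for slide 3 and carry no test. In the block fit, too, the change rests on these 5 arrays, since soy 2 is alone on its slide.

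**Figure D4:**
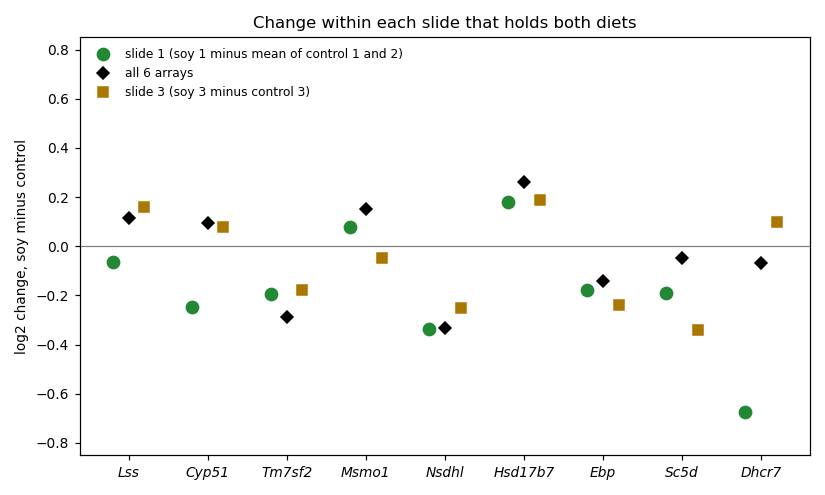
Log2 change of soy minus control for each enzyme within slide 1 (circles), over all 6 arrays (diamonds) and within slide 3 (squares). Nsdhl lies below 0 in all 3, at -0.34, -0.33 and -0.25, and Dhcr7 is at -0.67 on slide 1 and 0.10 on slide 3.

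The earlier part of the pathway, from Hmgcs1 to Sqle, is given by 8 genes on the array, and 0 passed. Of these, 7 were higher in soy livers and 1, Fdps, lower, with a median of 0.09 and 2 genes without overlap between the diets. Of all genes, 48.8% were higher and 20.4% did not overlap, 9.67% with soy above control. Fdft1, squalene synthase, was 13.57, 13.52 and 13.50 in control and 13.86, 14.09 and 13.95 in soy, a change of 0.44 (SE 0.10, limma adjusted p = 0.146). Every soy array was above every control, as it was for Mvd, a decarboxylase of the pathway, with a change of 0.40 (limma adjusted p = 0.350). Hmgcs1, the synthase that opens the list, changed by 0.32 with overlap (adjusted p = 0.754). Fdps, the farnesyl diphosphate synthase, changed by -0.26 (adjusted p = 0.579). Sqle, which makes the epoxide that Lss uses, changed by 0.09 (adjusted p = 0.888), and its groups overlapped. Without control 3, Sqle changed by -0.09, Idi1 by -0.02, Mvk by -0.05 and Pmvk by -0.05. With Fdps, most of the list was then below 0, so the count of 7 and the sign of the median depend on that array. Without soy 1, where it was low, Hmgcs1 changed by 0.74, and without soy 3 by 0.09. On slide 1 only 2 of the 8 were higher in soy, and on slide 3 7 were. Whether the earlier and later parts differ in their response was not tested.

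Of 6 further genes for other sterol steps and electron donors, 0 passed, 3 being higher and 3 lower in soy, with a median of 0.06. Lbr, which shares the activity of Tm7sf2, changed by 0.24 (limma adjusted p = 0.456) and was higher on every soy array than on any control. Pgrmc1, a heme protein that binds Cyp51, changed by 0.48 (adjusted p = 0.174) and Cyb5b, a cytochrome b5, by 0.52 (adjusted p = 0.124), again without overlap. Por, the reductase that gives electrons to Cyp51 and other P450 enzymes, was 16.60, 16.58 and 16.76 in control and 16.56, 15.72 and 15.61 in soy. Soy 1 was thus just below the lowest control and the other soy arrays far below it, and the change was -0.68 without overlap (SE 0.24, adjusted p = 0.331). Of the 6 genes, 3 were higher and 1 lower in soy without overlap. Of all genes, 20.4% did not overlap, 9.67% being higher and 10.8% lower.

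Of 9 genes for the control of SREBPs and sterol uptake, 0 passed, 4 being higher and 5 lower in soy, with a median of -0.03. Srebf1, which encodes SREBP-1, was 13.90, 14.50 and 13.38 in control and 15.20, 14.09 and 14.51 in soy. Its groups overlapped, with control 2 above soy 2, and the change was 0.68 (SE 0.34, limma adjusted p = 0.512). Without soy 1 it was 0.38, without control 3 0.40 and without control 2 0.96. Insig2, a relative of Insig1, changed by 0.55 with overlap (adjusted p = 0.536), and by 0.25 without control 2. Srebf2, which encodes SREBP-2, changed by 0.33 with overlap (adjusted p = 0.433), and Insig1, which holds SREBPs back, by 0.31 without overlap (adjusted p = 0.405). Scap, the escort of SREBPs, changed by -0.39 (adjusted p = 0.292) and Stard4, a sterol carrier, by -0.31 (adjusted p = 0.439), both without overlap. In a list of 10 genes for the use and export of sterols, 0 passed as well. It had 4 genes higher and 6 lower, with a median of -0.06, and its largest fall and rise in value were in Abcg8, a sterol exporter, at -0.86 without overlap (limma adjusted p = 0.0907), and in Cyp7a1, the rate-limiting enzyme of bile acid synthesis, at 0.36 with overlap (adjusted p = 0.805). Cyp7a1 was low on control 1, at 11.16 against 13.13 and 12.51 on the other controls, and without that array its change was -0.19.

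**Figure D5:**
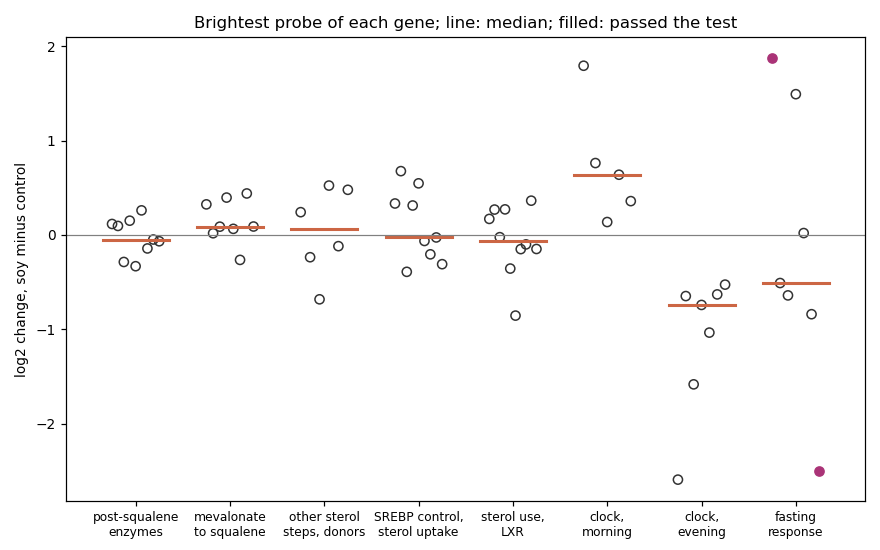
Log2 change of soy minus control on the brightest probe of each gene, by gene list, with the median of each list as a line; filled points passed the test. The 9 post-squalene enzymes stay between -0.33 and 0.26 with a median of -0.05, and Pdk4 (1.87) and Igfbp1 (-2.50) are the genes that passed.

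Lists for fasting, the clock and cell types were read on the same arrays. In a list of fasting genes 2 of 7 passed, where 0.532% of all genes did, with 3 genes higher, 4 lower and a median of -0.51. These were Pdk4, a kinase that restrains pyruvate use, higher by 1.87 (limma adjusted p = 0.0149) and Igfbp1, which insulin represses, at -2.50 (adjusted p = 0.0242). Of the others, Pck1 (-0.84), Angptl4 (-0.64) and Cpt1a (-0.51) were lower and Fgf21 (1.49) higher without overlap, and none of these passed. Fgf21 reached a level well above background on 1 of 3 controls and 3 of 3 soy arrays, so its change is not exact. Of 5 genes of the clock that peak toward morning, 4 were well above background on all arrays and higher in soy, whereas Npas2 stayed near background on all 6 (median of the 5, 0.64). All 7 that peak toward evening had values below 0 (median -0.74), and 0 of either list passed. The largest of these changes were in Arntl at 1.79 (adjusted p = 0.210) and Dbp at -2.59 (adjusted p = 0.300). They were smaller without soy 3, at 1.28 for Arntl and -1.49 for Dbp. Per3, an evening gene, then changed by -0.11, against -0.53. Nfil3, a morning gene with overlap between the diets, changed by 0.0039 without soy 3, against 0.36. Nr1d1, an evening gene named after its values were seen, changed by -1.58 (limma adjusted p = 0.106). It kept -1.37 without soy 3. The other probes of Arntl gave 0.72 and -0.0035, so they disagree, and the other probe of Dbp gave -2.62. The mice had free access to food by the study's methods, and the hour of tissue collection and the time since the last meal are not given in the sources used here. Where these differed between the groups, they cannot be told apart from the diet. Their part in the values of the enzymes was not tested. Hepatocyte markers were on the array in all 7 cases, led by Alb, with 1 higher, 6 lower and a median of -0.19, and Alb itself changed by -0.14 (adjusted p = 0.692). Quantile normalization sets a signal by its rank on the array. Alb had the same value, 18.99, on control 1, control 2 and soy 1, so its change is not exact. The largest fall in value among the hepatocyte markers was in Tat, an enzyme of tyrosine breakdown, at -0.76 with overlap (adjusted p = 0.324). Cps1 changed by -0.47 (limma adjusted p = 0.178) and was the only one without overlap on its brightest probe. The single gene above 0 was Ttr at 0.06 on its brightest probe, whereas its other probe gave -0.39 without overlap (adjusted p = 0.287). Of 5 pancreas markers, Cela2a and Ctrb1 were well above background on all arrays and lower in soy without overlap. The other 3, Cpa1, Pnlip and Prss2, reached that level on 2 of 3 controls and 0 of 3 soy arrays, so the median of the list (-0.51), which is the value of Cpa1, is not an exact change. The summed signal of the 5, on the linear scale, was 3447, 4517 and 3627 in control and 2460, 2672 and 2441 in soy livers, where Ctrb1 was the brightest and Cela2a changed most (-1.21, adjusted p = 0.0724). The summed signal of 3 red cell markers, of which Hba-a1 was the brightest, was 168099, 123514 and 179413 in control and 137013, 282001 and 163470 in soy, highest on soy 2, the array on which 5 of the 9 enzymes were highest as well. Hba-a1 made up most of this sum, and Alas2, an enzyme of heme synthesis, was at 13.58 on soy 2, below control 1 (13.96), control 3 (13.94) and soy 1 (13.71). Slc4a1, the anion exchanger of red cells, was highest on soy 2 (7.86), next to control 3 (7.83). The median change was 0.15 for 5 markers of Kupffer cells and leukocytes, -0.06 for 5 of endothelial cells, -0.08 for 5 of stellate cells, 0.12 for 5 of bile duct cells, -0.08 for 5 of adipocytes and 0.26 for the red cell markers. Among these, Epcam of the bile duct list and Adipoq and Plin1 of the adipocyte list were not well above background on any array. The adipocyte median is the value of Plin1, so it is not an exact change. The red cell median is that of Hba-a1, which changed by -0.07 without soy 2, and within slides the median of that list was -0.11 on slide 1 and -0.37 on slide 3. The largest values in these lists were Cd5l (0.45) and Marco (-0.73) for Kupffer cells and Kdr (0.30) and Lyve1 (-0.67) for endothelial cells. For bile duct cells they were Epcam (0.20) and Sox9 (-0.16, with 0.35 on its other probe). Epcam was near background, so its value and rank are not exact. Col1a1 (-0.997) was the largest for stellate cells, and Cidec (0.61) and Lep (-0.21) for adipocytes. Single arrays carried several of these largest values, wholly or in part. Lyve1 was high on control 1 and changed by -0.04 without it, and Cidec was high on soy 1 and changed by 0.07 without it. Marco was high on control 3 and changed by -0.20 without it, and Col1a1 was high on control 1 and changed by -0.61 without it. In each of the 8 marker lists 0 genes passed. The part of these cells in the enzymes' values was not tested.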

How the data were processed

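For each 1-colour Agilent array the authors deposited the output of Feature Extraction 11.5.1.1, with uncorrected median intensity values for spots and local background, unscaled between arrays, and a processed intensity. They also deposited log2 values that share their quantiles (array medians 7.33 to 7.34). The 0 or 1 marks for outlier spots and for spots well above background were used as deposited. Here the medians were corrected with normexp (offset 50), quantile normalized and log2 transformed, outlier spots were dropped and spots of a probe averaged. Soy and control were compared with limma 3.58.1 in R 4.3.3, with p adjusted over all 56605 probes. The fit was tested on simulated data. Each gene is given by its brightest probe; list genes without an array are differences of means, a setting chosen after seeing the data. Symbols came from RefSeq accessions (GRCm38.p6), whereas the arrays carry annotation of another build. The rule named all 9 enzymes, allowed any gene of the first 3 pathway lists, and elsewhere took genes that passed or had the largest rise or fall, with the 5 most alike; further genes of the fasting and marker lists (brightest, without overlap or near background), Stab2 and Ttr's likeness were named after their values were seen; of the 15 other lists, Acat2, Faxdc2 and Hbb-bs were not matched to a probe, and some other list members are not reported here and were left out of the list counts and medians. The enzymes and lists were chosen with earlier results of these data known. Arrays, 3 per diet, limit the precision. Tables and plots used Python 3.11.15, pandas 2.3.3 and matplotlib 3.10.9.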

Additional observations from a re-analysis of the deposited data

How the results depend on the processing

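In each of 18 alternatives 0 of the 9 enzymes passed, and the lowest adjusted p for an enzyme by limma was 0.179 (Hsd17b7). Lss, Tm7sf2, Msmo1, Nsdhl, Hsd17b7 and Ebp kept their direction in all 18, but not their size. Lss ranged from 0.03 to 0.18, Msmo1 from 0.02 to 0.22 and Tm7sf2 from -0.37 to -0.15. Ebp ranged from -0.24 to -0.11, Nsdhl from -0.39 to -0.23 and Hsd17b7 from 0.18 to 0.31. Of 162 values 7 turned sign. These were Cyp51 with slide as a block (-0.11) and values with 1 array left out, where Cyp51 ranged from -0.12 to 0.31, Sc5d from -0.31 to 0.11 and Dhcr7 from -0.26 to 0.26. The median of the enzymes ranged from -0.20 to 0.18 with 1 array left out, the highest without soy 1. In each of 8 other settings of background, scaling, filter and input, 4 enzymes were higher and 5 lower, as reported. A shift to the 75th percentile moved the median of all genes to 0.11, but that of genes well above background on all arrays only to 0.01. The count of all genes that passed, 122, became 48 with an offset of 16, 5892 with processed signals at a common 75th percentile (input and scaling both changed), 313 with only probes well above background, 184 with trend and robust settings, 51 with the replicate block, 16 with slide as a block, and, with 1 array left out, 18 (soy 2) to 130 (control 3), the others giving 63 (control 1), 45 (control 2), 30 (soy 1) and 19 (soy 3). With the processed signal at the 75th percentile 89.7% of the calls were higher in soy, against 63.9%. The deviations of mice with the same replicate number correlated at 0.116, -0.0574 and 0.106 for numbers 1, 2 and 3, and those of mice with different numbers at -0.202 to 0.105, so not every pair was above 0.1; the mice numbered 1 were on one slide and those numbered 3 on another, and the numbers were not taken as pairs. Not every mouse correlated best with its own number, and the block by number changed no call for an enzyme. The cause was not tested. The precision of each change is limited by 3 arrays per diet.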
